A study of Mus musculus with 36 samples.

Results

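Mouse embryonic fibroblasts (MEFs, connective-tissue cells grown out of mouse embryos) were given either poly(I:C), a man-made double-stranded RNA that cells read as a sign of viral infection, or antimycin with oligomycin (AO), which block respiratory complex III and the mitochondrial ATP synthase, and their mRNA was sequenced after 4 h. The comparison described here takes every line that carries no cell-density label and sets its poly(I:C) library (written pI:pC in the labels) against its AO library, which gives 10 pairs or 20 of the 36 libraries in the series. The 10 untreated libraries of the same lines give the level from which each treatment departed. Of the 10 lines, 3 were homozygous for the N129D knock-in allele of Tbk1 (hom lines E2.9, E2.2 and E1.4). Another 4 were heterozygous (het lines E2.8, E2.6, E2.5 and E1.3) and 3 were wild type (WT lines E2.7, E2.1 and E1.5), and values of single lines follow this order. TBK1 is a protein kinase, and because N129D replaces a single residue, the Tbk1 mRNA level does not check the genotype labels. All lines were cultured in DMEM, and each line has 1 library per treatment. The sources used here give no dose, no delivery route for poly(I:C) and no passage number. The design text speaks of quadruplicates, whereas the labels used here give 4 lines for the heterozygotes and 3 for each other genotype. Nothing in the labels says whether the lines came from separate embryos. Each line is compared with itself, and the gene tests give each genotype its own treatment effects. Their p-values therefore measure the spread of treatment differences between lines of the same genotype, pooled over genotypes, noise of single libraries included. Spread between genotypes is not part of it.

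Both treatments are known to reach TBK1, by different routes. Double-stranded RNA is read by Toll-like receptor 3 in endosomes and by RIG-I-like receptors in the cytosol, after which TBK1 phosphorylates the transcription factor IRF3, NF-kB is released from its inhibitors, interferon beta is made, and secreted interferon switches on the many interferon-stimulated genes through JAK and STAT proteins. A block of respiration is reported by the mitochondrial protease OMA1 to a kinase that phosphorylates the translation factor eIF2 alpha, which favours translation of ATF4, the transcription factor of the integrated stress response. The same drug pair is widely used to start mitophagy, the removal of damaged mitochondria, in which TBK1 phosphorylates the receptors optineurin and p62.

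To show where the searched motifs stand, 5 promoters are printed. They were picked because their window holds the motif of their list, taking the largest differences among such named genes with at most 2 per motif, so a match in them is no finding. Each covers 250 bases before and 50 bases after the gene start (RefSeq, GRCm38.p6, 5′ to 3′ on the gene's strand). Capitals mark the motif that was searched, on both strands, and a capital run in the reverse orientation is the reverse complement. Gbp5 and Ifit3 are interferon-stimulated genes, and their capitals mark the core of the interferon-stimulated response element (GAAA, any 2 bases, GAAA). Irf1 and Il6 belong to the NF-kB and inflammatory genes, and their capitals mark an NF-kB site (GGGA, any 4 bases, CC), in Il6 as 2 overlapping matches. Vldlr is an integrated stress response gene, and its capitals mark TGATGNAA, a C/EBP-ATF element.
Gbp5 (chr3:142496684-142496983, plus strand, match starting at -165 from the gene start): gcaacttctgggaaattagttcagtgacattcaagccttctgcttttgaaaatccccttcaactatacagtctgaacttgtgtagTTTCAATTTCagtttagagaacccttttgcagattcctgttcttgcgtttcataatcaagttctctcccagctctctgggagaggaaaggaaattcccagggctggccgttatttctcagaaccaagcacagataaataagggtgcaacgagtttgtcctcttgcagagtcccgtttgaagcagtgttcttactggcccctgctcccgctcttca
Ifit3 (chr19:34583279-34583578, plus strand, 2 matches, the upstream one at -156): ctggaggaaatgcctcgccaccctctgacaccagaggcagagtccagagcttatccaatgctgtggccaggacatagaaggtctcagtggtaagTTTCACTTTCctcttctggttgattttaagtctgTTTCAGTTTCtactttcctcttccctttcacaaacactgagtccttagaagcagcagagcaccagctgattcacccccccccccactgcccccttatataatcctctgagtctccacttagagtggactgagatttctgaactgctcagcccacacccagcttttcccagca
Irf1 (chr11:53769764-53770063, plus strand, match at -13): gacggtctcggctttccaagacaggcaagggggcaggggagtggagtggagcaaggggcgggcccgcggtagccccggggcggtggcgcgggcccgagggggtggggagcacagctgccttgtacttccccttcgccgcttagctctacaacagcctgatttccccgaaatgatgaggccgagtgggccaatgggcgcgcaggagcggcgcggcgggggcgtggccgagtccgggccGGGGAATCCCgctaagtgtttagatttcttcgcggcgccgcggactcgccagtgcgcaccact
Il6 (chr5:30012864-30013163, plus strand, matches from -44): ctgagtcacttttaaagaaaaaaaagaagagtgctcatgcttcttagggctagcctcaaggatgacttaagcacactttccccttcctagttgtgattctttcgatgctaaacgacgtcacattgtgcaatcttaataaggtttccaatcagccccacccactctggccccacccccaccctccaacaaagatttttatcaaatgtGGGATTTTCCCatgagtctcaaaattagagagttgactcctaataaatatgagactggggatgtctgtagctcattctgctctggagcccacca
Vldlr (chr19:27216770-27217069, plus strand, match at -200): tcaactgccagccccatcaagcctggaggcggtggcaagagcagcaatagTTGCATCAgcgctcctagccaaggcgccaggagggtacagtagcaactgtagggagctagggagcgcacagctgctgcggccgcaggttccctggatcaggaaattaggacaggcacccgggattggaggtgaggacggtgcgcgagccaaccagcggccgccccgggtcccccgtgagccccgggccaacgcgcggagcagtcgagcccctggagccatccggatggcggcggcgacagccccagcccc
Among promoter windows of the interferon-stimulated genes, 24 of 60 (40.0%) held the response element core, against 3.44% of all 32851 windows. The NF-kB site was found in 20 of 29 windows of the NF-kB and inflammatory genes (69.0%) and in 20.7% of all windows. TGATGNAA was found in 12 of 43 windows of integrated stress response genes (27.9%), against 3.97% of all windows. The lysosomal E-box TCACGTGA was present in 6 of 36 windows of lysosomal genes (16.7%), against 0.974% of all. The AP-1 site TGACTCA was seen in 1 of 32 windows of immediate-early genes (3.12%) and in 5.2% of all windows. TGACNNNGC, the antioxidant element, stood in 9 of 26 windows of NRF2 target genes (34.6%), against 12.4% of all. These shares are descriptions of the letters in short windows. A gene can have several windows, and 125 of the 168 genes named by rule had any.

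Library depth lay between 4309127 and 9355752 counts under poly(I:C), between 3689144 and 14879227 under AO and between 4361854 and 8308439 in untreated cells. Depth did not differ between the treated libraries of a line beyond the spread of the pairs (mean log2 difference -0.063, higher in 5 of 10 pairs, two-sided exact sign-flip permutation p = 0.791, the smallest possible being 0.00195). The mitochondrial genome supplied 0.874 to 1.29% of counts under poly(I:C) (median 1.19%), 0.718 to 1.3% under AO (median 0.913%) and 0.722 to 1.19% in untreated cells (median 0.935%), and the paired difference between treatments was 0.234 ± 0.149 percentage points (SD, n = 10, higher under poly(I:C) in 9 pairs, exact sign-flip permutation p = 0.00391). Fibroblast markers (Col1a1, Pdgfra and 8 others) were all present, with a summed level of 6401 to 9754 CPM (counts relative to the size of the library) under poly(I:C), 3405 to 7102 CPM under AO and 5314 to 8620 CPM in untreated cells. Macrophage markers (Adgre1, Csf1r and 10 others) summed to 217 CPM under poly(I:C), 141 CPM under AO and 232 CPM untreated in hom line E2.9, to 46.4 CPM under poly(I:C), 31.5 CPM under AO and 51.3 CPM untreated in het line E2.6, and to between 1.53 and 7.12 CPM in all libraries of the other 8 lines. In untreated libraries, smooth and skeletal muscle markers summed to 965 to 2711 CPM, and neural and glial markers to 211 to 464 CPM. Chondrocyte markers had 56.8 to 222 CPM there, adipocyte markers 21.9 to 167.5 CPM and epithelial markers 2.46 to 84.4 CPM. Endothelial markers reached 22.6 CPM and erythroid markers 0.573 CPM. Whether these levels come from other cells was not tested. Hom line E1.4 stood apart by transcript length: its median poly(I:C) minus AO log2 difference was -0.256 in the shortest of 4 equal classes of genes and 0.515 in the longest, whereas those medians lay between 0.0 and 0.102 and between -0.044 and 0.082 in the other 9 lines. The part these lines play in the results was not tested beyond leaving them out, and the larger moves in list counts are given beside the lists.

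Every test below is edgeR's quasi-likelihood test in 1 fit over the 30 libraries with the line as a block, with Benjamini-Hochberg adjustment over the 13364 genes that passed a filter on low counts, and a gene is said to rise or fall when its adjusted p is under 0.05. Log2 differences carry the SE of that fit, and levels are CPM scaled by the trimmed mean of M-values, given as the lowest to the highest of 10 lines with the median. Whether ranges overlap was recorded for named genes only, and no share over all genes stands beside it. Ranges without overlap are therefore descriptions of single genes, and their number is no finding. Poly(I:C) and AO libraries of the same line differed in 7598 genes (56.9% of those tested), 4112 (30.8%) higher under poly(I:C) and 3486 (26.1%) lower. A difference of at least 2-fold was present in 746 genes (5.58%) in the higher direction and 283 (2.12%) in the lower, and 1810 (13.5%) and 1492 (11.2%) passed with the same direction in all 10 pairs. Against untreated cells, 5308 genes (39.7%) changed under poly(I:C), 2655 (19.9%) up and 2653 (19.9%) down, and 6729 (50.4%) changed under AO, 3140 (23.5%) up and 3589 (26.9%) down. These 2 comparisons share the untreated libraries, so their values are set side by side below and their agreement is not read as a result. Changes of at least 2-fold against untreated were 311 up (2.33%) and 114 down (0.853%) under poly(I:C), and 203 up (1.52%) and 539 down (4.03%) under AO. Without the line as a block, 2959 genes changed under poly(I:C). The median over all genes tested was 0.05 for poly(I:C) over AO, so the list medians below are read against a value near 0. List counts are likewise read against the shares of all genes: 30.8% higher and 26.1% lower for poly(I:C) over AO. Against untreated cells these are 19.9% up and 19.9% down under poly(I:C), and 23.5% up and 26.9% down under AO. A list count near or below its share is no result about the list.

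**Figure D1:**
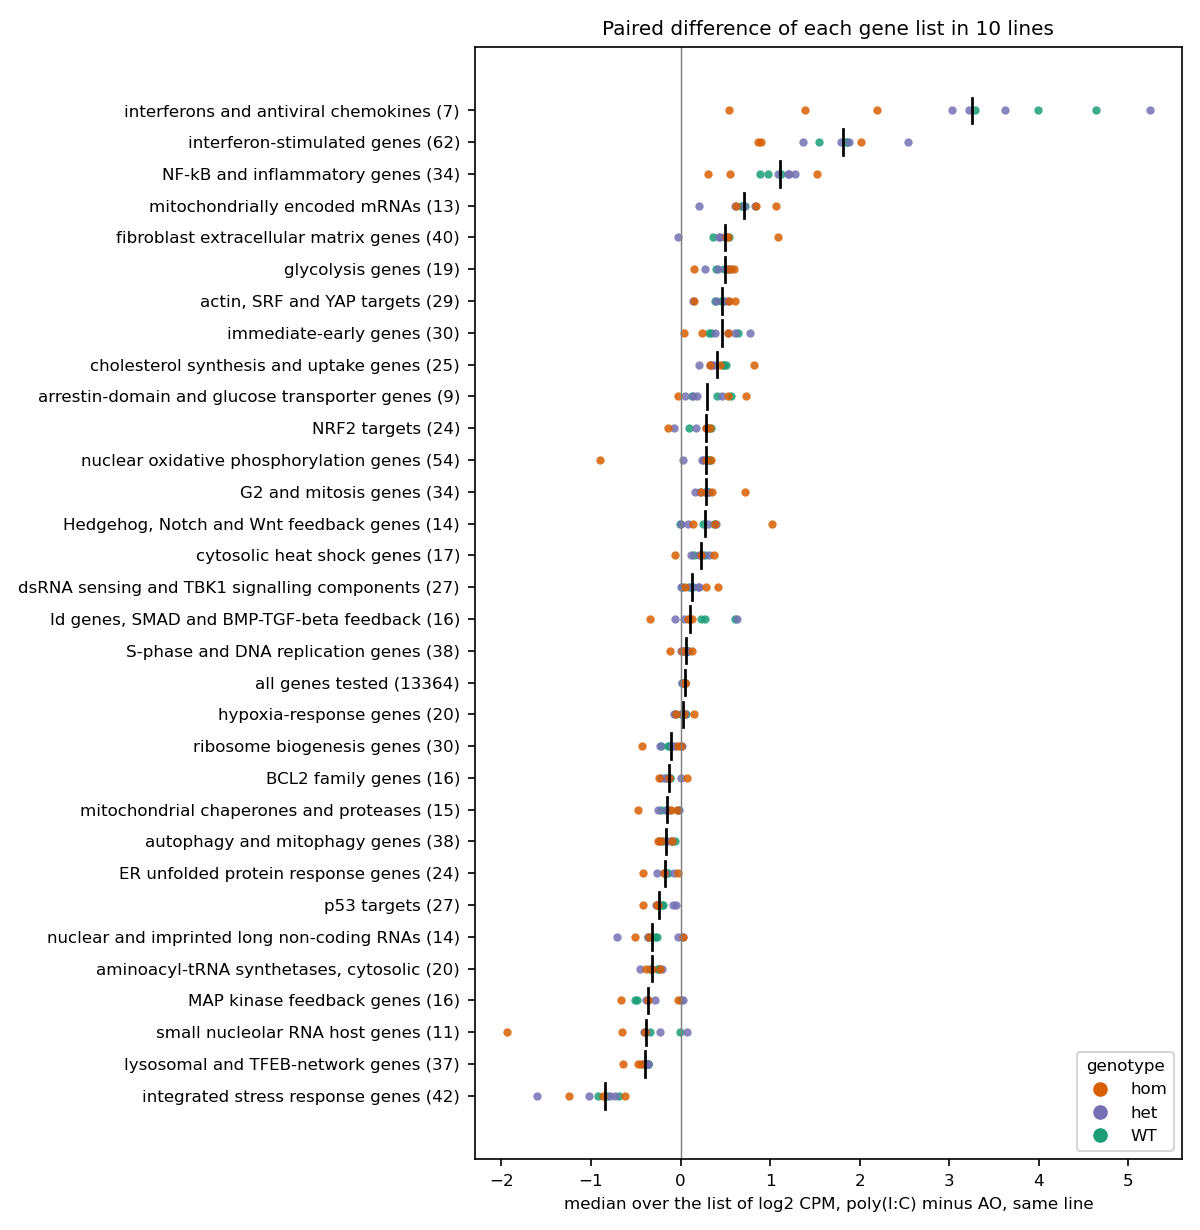
For 31 gene lists and all genes tested, the x axis gives the median log2 CPM difference of the list between the poly(I:C) and the AO library of a line, each point is 1 of 10 lines coloured by genotype, and the black bar is the median of the 10 lines (number of genes in parentheses). Interferon and chemokine genes lie furthest right, with a median of 3.26 over lines, integrated stress response genes furthest left at -0.85, and hom line E1.4 lies far from the other 9 for nuclear oxidative phosphorylation genes (-0.903) and small nucleolar RNA host genes (-1.939).

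The 10 genes named for the largest paired differences in favour of poly(I:C) were 8 genes known from antiviral defence, together with Medag and Txnip. Only genes with the same direction in all 10 pairs could be named in this way, so that agreement is no finding. Tgtp1, an interferon-inducible GTPase, reached 2.18 to 183 CPM (median 26.3) under poly(I:C) and 0 to 7.69 CPM (median 0.284) under AO, a difference of 5.83 ± 0.51 (SE, adjusted p = 5.45e-08) with higher values under poly(I:C) in 10 of 10 pairs. Gbp5, a guanylate-binding protein that restricts intracellular pathogens, showed 0.912 to 141 CPM (median 26.2) under poly(I:C) and 0 to 2.92 CPM (median 0.772) under AO and a difference of 5.12 ± 0.24 (SE, adjusted p = 1.42e-12). For both genes the ranges of the treatments overlapped, because the lowest hom lines under poly(I:C) lay below het line E2.5 under AO. Mx2 (an antiviral dynamin-like GTPase, difference 4.45 ± 0.32), Iigp1 (an immunity-related GTPase, 4.66 ± 0.47), Ifit3 (a partner of the RNA-binding IFIT1, 3.88 ± 0.28), Cmpk2 (a mitochondrial nucleotide kinase next to Rsad2 in the interferon response, 3.79 ± 0.22), Rsad2 (viperin, 3.64 ± 0.20) and Parp14 (an ADP-ribosyltransferase, 3.64 ± 0.19) were likewise higher in all 10 pairs. Some hom pairs of these genes rested on few counts. Iigp1 had 43, 2 and 3 counts under poly(I:C) and 0, 1 and 0 under AO in hom lines E2.9, E2.2 and E1.4. Mx2 had 22, 3 and 9 under poly(I:C) and 1, 0 and 0 under AO. RSEM shares reads among near-identical copies, so values of Tgtp1, Gbp5, Iigp1 and Ifit3, which has the copy Ifit3b, are less sure than the others.

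For Medag and Txnip most of the difference lay on the AO side. Medag, named for a role in adipocyte formation, had 20.6 to 102 CPM (median 46.7) under poly(I:C), 0 to 6.83 CPM (median 4.39) under AO and 16.2 to 73.6 CPM (median 28.7) in untreated cells, so the AO libraries all lay below every other library. Its log2 difference was 3.72 ± 0.21 (SE, adjusted p = 1.71e-11), made of 0.55 ± 0.16 under poly(I:C) and -3.17 ± 0.21 under AO relative to untreated cells. The poly(I:C) change did not pass without the line block (adjusted p = 0.35) or by DESeq2, which keeps the block (adjusted p = 0.0604). Txnip (chr3:96557957-96561883, plus strand) encodes an arrestin-domain protein that binds thioredoxin and restrains glucose uptake. It was present at 92.03 to 222 CPM (median 125) under poly(I:C), 7.38 to 22.6 CPM (median 10.3) under AO and 46.1 to 109 CPM (median 60.2) in untreated cells. Every AO library lay below all others, and the lowest poly(I:C) libraries met the upper end of the untreated range. The paired difference was 3.67 ± 0.13 (SE, adjusted p = 6.06e-14), with 1.13 ± 0.11 under poly(I:C) and -2.55 ± 0.13 under AO against untreated cells.

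In the other direction the leading gene was Gdf15, a stress-induced hormone of the TGF-beta family. Gdf15 had 0.262 to 1.56 CPM (median 1.21) under poly(I:C), 4.66 to 15.9 CPM (median 10.5) under AO and 0.318 to 2.39 CPM (median 1.06) in untreated cells. No AO library overlapped the other groups, and the poly(I:C) and untreated ranges overlapped, with a paired difference of -3.20 ± 0.22 (SE, adjusted p = 2.96e-10). Hmox1, which degrades heme, measured 41.2 to 112 CPM (median 71.5) under poly(I:C), 255 to 602 CPM (median 453) under AO and 49.9 to 85.4 CPM (median 66.05) in untreated cells and differed by -2.63 ± 0.10 (SE, adjusted p = 1.54e-13). Ddit3 (chr10:127290774-127296288, plus strand), which encodes the pro-apoptotic transcription factor CHOP, measured 26.2 to 73.8 CPM (median 46.3) under poly(I:C), 211 to 492 CPM (median 248) under AO and 20.9 to 103 CPM (median 71.6) in untreated cells, a difference of -2.47 ± 0.14 (SE, adjusted p = 1.8e-11). Each AO library exceeded every poly(I:C) library for these 3 genes. The same held for Lonrf1 (a RING-finger protein, -2.26 ± 0.09), Flvcr2 (a membrane transporter, -2.31 ± 0.18), Gadd45a (a growth-arrest and DNA-damage protein, -2.08 ± 0.16), Eno2 (the neuronal form of enolase, -2.06 ± 0.11) and the predicted gene Gm36995 (-2.27 ± 0.43). Cass4 (a Cas-family scaffold, -2.43 ± 0.32) and Ppp1r16b (a protein phosphatase 1 subunit, -2.33 ± 0.20) were lower under poly(I:C) in 10 of 10 pairs, as their naming required, with overlapping ranges. Both were scarce, with medians of 0.709 CPM for Cass4 and 1.76 CPM for Ppp1r16b under poly(I:C).

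Interferons and antiviral chemokines, the secreted signals of the response, were higher under poly(I:C) by large factors. Of 9 listed, 7 passed the filter, and 6 of these were higher under poly(I:C) than under AO, beside a background of 30.8% of all genes, with a median log2 difference of 5.13. Against untreated cells 6 of 7 rose under poly(I:C), beside a background of 19.9%. Under AO 1 of 7, Cxcl10, rose, beside a background of 23.5%, 2 by DESeq2, and 1 fell, beside 26.9%. The gene that fell was Il15 (-2.17 ± 0.55, SE, adjusted p = 0.00264), named after its value was seen. The gene that did not pass, Ifna4, was also singled out afterwards (adjusted p = 1). A gene silent in most groups passes a filter only through the group where it is high, so these counts support nothing further.

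Ifnb1 (chr4:88522025-88522774, minus strand), the interferon beta gene, had 0.534, 0 and 0.261 CPM in the 3 hom lines under poly(I:C), 10.8, 7.41, 50.7 and 18.9 CPM in the 4 het lines and 23.6, 9.33 and 22.7 CPM in the 3 WT lines. Under AO no line exceeded 0.376 CPM, and no count was seen in any of 10 untreated libraries. Under poly(I:C) hom lines E1.4 and E2.2 lay within the AO range, and every other line lay above it. Pooled over 10 lines, 1001 counts under poly(I:C) gave 15.7 CPM, against 12 counts and 0.172 CPM under AO. With a floor of 3 counts over the 10 untreated libraries, poly(I:C) was at least 352-fold higher than untreated, which covers counting error only. Its paired difference from AO was 5.65 ± 0.64 (SE, adjusted p = 1.4e-05), a call that was lost without lines E1.4, E2.6 and E2.9 (5.62, adjusted p = 1.0), where the lone hom line has no poly(I:C) count.

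Cxcl10 (chr5:92346638-92348889, minus strand), a chemokine that attracts T cells through CXCR3, had 55.5 to 3658 CPM (median 906) under poly(I:C), 18.3 to 271 CPM (median 116) under AO and 4.93 to 162 CPM (median 57.8) in untreated cells. The poly(I:C) library was the higher in 10 of 10 pairs, although the hom lines at 216, 132 and 55.5 CPM overlapped the AO libraries of the others. Against untreated cells Cxcl10 rose under poly(I:C) by 3.87 ± 0.19 (SE, adjusted p = 1.51e-11) and under AO by 1.10 ± 0.19 (SE, adjusted p = 5.69e-05). Cxcl9, another CXCR3 ligand, had 0.130 to 45.9 CPM (median 2.98) under poly(I:C) and 0 to 0.923 CPM (median 0) under AO and differed by 5.13 ± 0.37 (SE, adjusted p = 1.77e-09). Ccl5, which attracts T cells and monocytes, had 1.95 to 273 CPM (median 102) under poly(I:C) and 1.25 to 50.3 CPM (median 21.2) under AO, a difference of 2.13 ± 0.19 (SE, adjusted p = 9.99e-09).

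Interferon-stimulated genes were higher under poly(I:C) with 1 exception. Of 62 tested, 61 were higher under poly(I:C) than under AO and 0 were lower, with a median of 1.88, and 57 were higher without lines E2.6 and E2.9, those with macrophage markers. The exception, Bst2 (tetherin), was singled out for that reason (-0.08 ± 0.11, SE, adjusted p = 0.56). Against untreated cells 61 rose under poly(I:C) (median 1.63), whereas under AO 3 rose and 12 fell (median -0.16), both shares below the backgrounds of 23.5% up and 26.9% down. With 1 effect per treatment, 5 rose under AO. The count that fell under AO was 21 with no filter on low counts, and without the line block 0 rose and 0 fell. In bulk RNA, fewer cells of a type and less RNA per cell cannot be told apart.

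Among them, Ifit1, which binds viral RNA caps, had 14.2 to 2414 CPM (median 807) under poly(I:C), 1.34 to 182 CPM (median 53.9) under AO and 1.36 to 323 CPM (median 72.6) in untreated cells. Het line E2.5 was the highest and the hom lines the lowest, at 47.002, 34.3 and 14.2 CPM under poly(I:C), 1.34, 5.78 and 1.74 CPM under AO and 1.64, 4.89 and 1.36 CPM untreated. The paired difference was 3.44 ± 0.22 (SE, adjusted p = 7.6e-11). Isg15, a ubiquitin-like modifier, had 10.6 to 613 CPM (median 280.2) under poly(I:C) and 6.11 to 289.8 CPM (median 73.7) under AO and a smaller difference of 1.52 ± 0.14 (SE, adjusted p = 1.33e-08). Samd9l, an antiviral inhibitor of translation, and Parp14 fell under AO (-0.96 ± 0.13, SE, adjusted p = 3.41e-06, and -0.64 ± 0.23, SE, adjusted p = 0.0263), but neither fall passed without the line block (adjusted p = 0.15 and 0.54), and that of Parp14 did not pass without E2.1, E2.6 or E2.9 (0.0592, 0.0518 and 0.0613). By line, the list median ran from 0.861 in hom line E2.2 and 0.900 in hom line E1.4 to 2.542 in het line E2.8.

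Receptors and signalling proteins of the double-stranded RNA pathway moved in both directions. Of 27, 13 were higher under poly(I:C) than under AO, 6 were lower and 8 did not pass (median 0.16), with 8 higher when the line block was left out. The backgrounds were 30.8% higher and 26.1% lower, so the share that was lower did not exceed that of all genes. Tlr3, the endosomal receptor for double-stranded RNA, had 3.87 to 245 CPM (median 29.7) under poly(I:C) and 0.747 to 21.9 CPM (median 2.88) under AO, a difference of 2.83 ± 0.17 (SE, adjusted p = 3.06e-11). Its change was 1.79 ± 0.14 under poly(I:C) and -1.04 ± 0.18 under AO, the fall not passing without the line block (adjusted p = 0.21). Trim25, a ubiquitin ligase that activates RIG-I, differed by 1.53 ± 0.09 (SE, adjusted p = 2.29e-11), and Socs3, a feedback inhibitor of JAK kinases, by 1.99 ± 0.10 (SE, adjusted p = 4.27e-12). Tbk1 itself went the other way: it had 34.5 to 55.7 CPM (median 37.9) under poly(I:C), 56.04 to 74.5 CPM (median 70.2) under AO and 39.03 to 49.7 CPM (median 48.01) in untreated cells. The 10 AO libraries all exceeded the 10 poly(I:C) libraries (-0.75 ± 0.07, SE, adjusted p = 2.39e-08). Its change was -0.22 ± 0.07 under poly(I:C) and 0.54 ± 0.07 under AO, both past the threshold. The fall under poly(I:C) did not pass without E1.5, without E2.7, or without E2.6 and E2.9 (adjusted p = 0.071, 0.0658 and 0.0715).

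**Figure D2:**
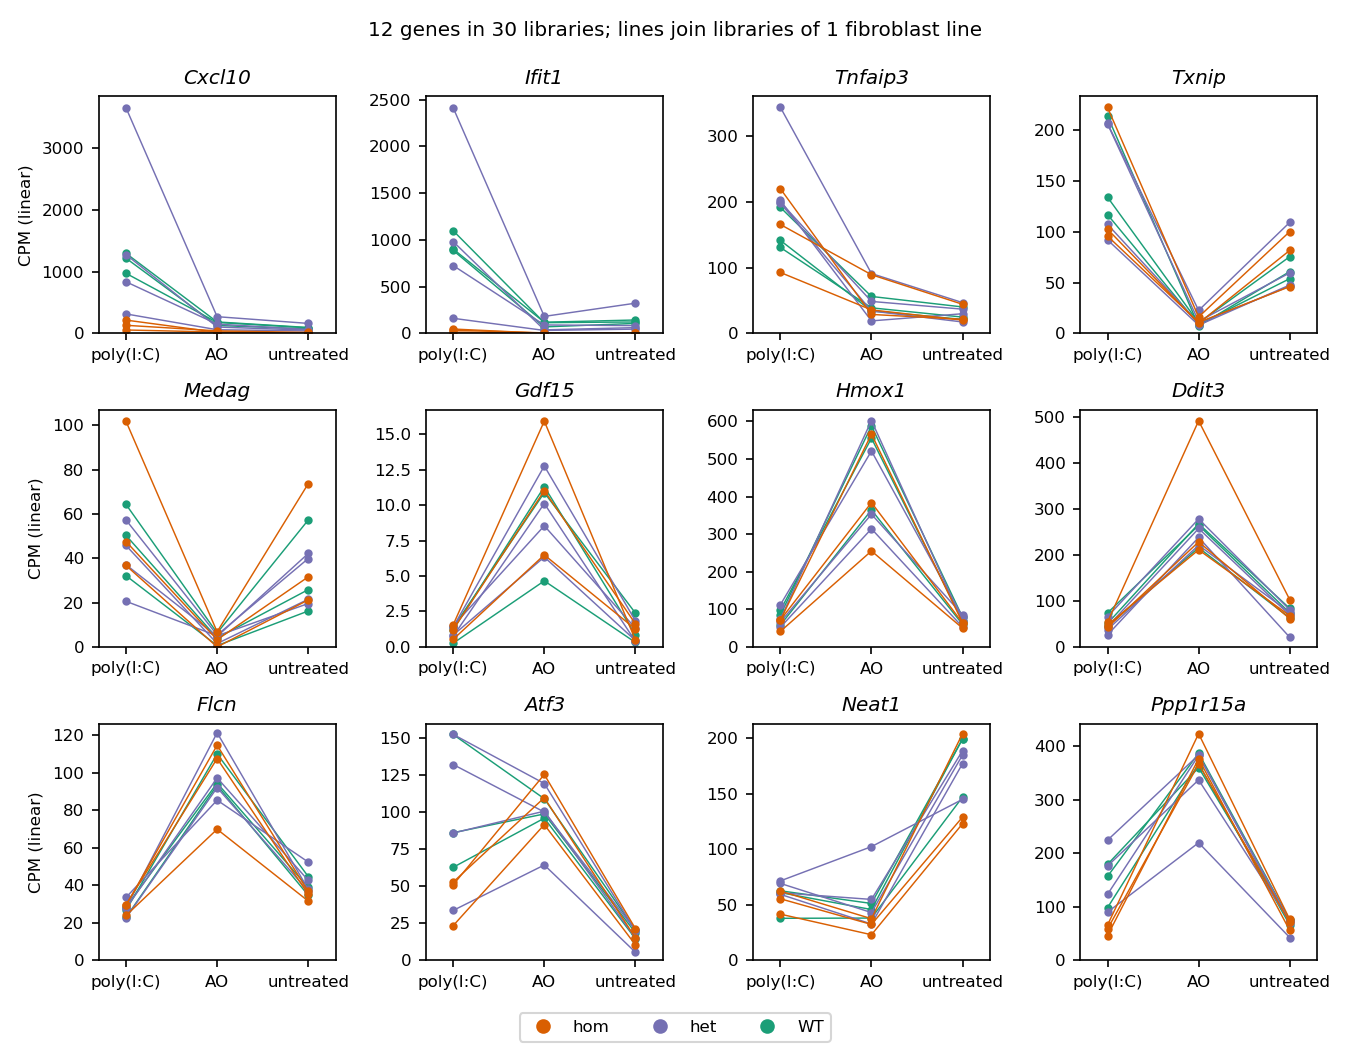
Levels of 12 genes in CPM on a linear axis, with the poly(I:C), AO and untreated library of each of 10 lines joined and coloured by genotype. Txnip and Medag are lowest under AO, Gdf15, Hmox1, Ddit3 and Flcn are highest under AO, Atf3 is high and Neat1 low under both treatments, and the 3 hom lines hold the lowest Cxcl10, Ifit1 and Ppp1r15a levels under poly(I:C).

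NF-kB target and inflammatory genes responded to both treatments, more strongly to poly(I:C). Of 34 tested of 38 listed, 27 were higher under poly(I:C) than under AO, 3 were lower and 4 did not pass (median 1.22). Against untreated cells 31 rose under poly(I:C) (median 1.51) and 19 rose under AO (median 0.49), a count of 12 without the line block. Irf1, a transcription factor of the interferon response, had 88.3 to 587 CPM (median 272) under poly(I:C), 8.99 to 49.1 CPM (median 27.5) under AO and 20.3 to 67.8 CPM (median 45.6) in untreated cells. No poly(I:C) library overlapped the others, and its paired difference was 3.11 ± 0.12 (SE, adjusted p = 1.57e-13). Tnfaip3, which encodes the NF-kB inhibitor A20, had 92.6 to 344 CPM (median 195) under poly(I:C) and 19.02 to 90.9 CPM (median 37.3) under AO without overlap (2.04 ± 0.16, SE, adjusted p = 1.8e-09). Nfkbia, the inhibitor IkB alpha, differed by 1.16 ± 0.13 (SE, adjusted p = 2.19e-07), Nfkbie, IkB epsilon, by 1.96 ± 0.15 (SE, adjusted p = 1.51e-09), and Tlr2, a receptor for bacterial lipoproteins, by 1.58 ± 0.11 (SE, adjusted p = 3.41e-10).

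Il6 (chr5:30013114-30019981, plus strand), an inflammatory cytokine, varied with the line. Under poly(I:C) it had 2.31, 1.45 and 4.17 CPM in hom lines, 14.9, 8.39, 69.3 and 25.8 CPM in het lines and 23.8, 11.96 and 25.7 CPM in WT lines. Under AO it had 0.590 to 2.77 CPM (median 1.75). Poly(I:C) exceeded AO in 9 of 10 pairs (2.82 ± 0.22, SE, adjusted p = 2.07e-09), and the exception was hom line E2.2. The 3 NF-kB genes lower under poly(I:C) than under AO, named because they were few, were Ptgs2 (-0.43 ± 0.08), which makes prostaglandins, Lif (-0.43 ± 0.14), a cytokine of the IL-6 family, and Nfkbib (-0.39 ± 0.13), IkB beta, and 1 was lower without the line block.

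Immediate-early genes, which encode transcription factors made within minutes of a stimulus, also rose in most cases under both. Of 30, 17 were higher under poly(I:C), 6 lower and 7 did not pass (median 0.52). Relative to untreated cells, 29 rose under poly(I:C) (median 1.06) and 21 under AO (median 0.58). Egr1 measured 380.1 to 1032 CPM (median 664) under poly(I:C), 104 to 452 CPM (median 361) under AO and 73.97 to 184 CPM (median 152) in untreated cells, with poly(I:C) above AO in 9 of 10 pairs (1.11 ± 0.13, SE, adjusted p = 2.58e-07). Fos (1.23 ± 0.12, SE, adjusted p = 1.92e-08) and Jun (0.82 ± 0.08, SE, adjusted p = 4.54e-08) were higher under poly(I:C) in all pairs, with no overlap for Jun. Klf2 (1.91 ± 0.18), Klf10 (1.39 ± 0.08) and Gadd45b (1.68 ± 0.14) were higher by larger amounts, and Klf2 and Gadd45b did not pass against untreated under AO (adjusted p = 0.494 and 0.763). Myc was the reverse: it had 181 to 311 CPM (median 274) under poly(I:C), 228 to 407 CPM (median 371) under AO and 112 to 162 CPM (median 146) in untreated cells, lower under poly(I:C) in 10 of 10 pairs (-0.46 ± 0.07, SE, adjusted p = 4.92e-06), although both treatments raised it.

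Feedback genes of the MAP kinase pathway, the dual-specificity phosphatases, Sprouty and Spred genes, leaned toward AO. Of 16, 3 were higher under poly(I:C), 8 lower and 5 did not pass (median -0.32). Spred3 fell under poly(I:C) (-0.86 ± 0.11, SE, adjusted p = 6.36e-06) and had -0.08 ± 0.11 (SE, adjusted p = 0.558) under AO. Dusp8, a phosphatase of stress kinases, rose by 0.40 ± 0.09 under poly(I:C) and 1.06 ± 0.09 under AO. Spry1, an inhibitor of receptor tyrosine kinase signalling, was higher under poly(I:C) than under AO (0.62 ± 0.08, SE, adjusted p = 7.3e-07).

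Integrated stress response genes stood at the opposite end from the interferon-stimulated genes. Of 42, 38 were lower under poly(I:C) than under AO, 1 was higher and 3 did not pass (median -0.95). Against untreated cells 11 rose and 6 fell under poly(I:C) (median 0.04), shares near the background of 19.9% each way. These counts were 3 and 3 without the line block, and 10 fell without het line E2.6 and 11 without lines E1.4, E2.6 and E2.9. Under AO 39 rose and 0 fell (median 0.93), with 1 that fell without het line E2.6. The list median of AO minus untreated was positive in 10 of 10 lines, from 0.686 in het line E2.5 to 1.922 in het line E2.6. Pycr1, a proline-synthesis enzyme chosen after its value was seen, was the gene that was higher (0.24 ± 0.08, SE, adjusted p = 0.0181), where 2 were higher without E1.4 or E2.5 and 0 without the line block or in the 20 treated libraries alone.

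Atf4, the transcription factor of this response, had 261 to 638 CPM (median 534) under poly(I:C), 723 to 1531 CPM (median 874) under AO and 255 to 731 CPM (median 528) in untreated cells. AO libraries lay above all poly(I:C) libraries (-0.83 ± 0.08, SE, adjusted p = 4.69e-08), and the poly(I:C) and untreated ranges overlapped (0.02 ± 0.08, SE, adjusted p = 0.91). Slc3a2, the heavy chain of amino acid exchangers, had 188 to 388 CPM (median 358) under poly(I:C) and 528 to 1259 CPM (median 823) under AO (-1.28 ± 0.06, SE, adjusted p = 8.53e-13), again without overlap. Trib3, a pseudokinase that dampens ATF4 output, had 8.06 to 142 CPM (median 90.2) under poly(I:C), 197 to 413 CPM (median 209) under AO and 7.93 to 172 CPM (median 94.1) in untreated cells. Het line E2.6 had 8.06 CPM under poly(I:C), 214 CPM under AO and 7.93 CPM untreated, and set the lower end of the poly(I:C) and untreated ranges, since the other 9 lines lay between 69.9 and 142 CPM under poly(I:C). The Trib3 difference was -1.52 ± 0.25 (SE, adjusted p = 3.24e-05). Ppp1r15a, GADD34, which brings the phosphatase back to eIF2 alpha, differed by -1.71 ± 0.08 (SE, adjusted p = 2.77e-12) and is taken up with the genotypes.

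Cytosolic aminoacyl-tRNA synthetases, which load tRNAs with amino acids, followed AO with smaller steps. Of 20, 13 were lower under poly(I:C), 4 higher and 3 did not pass (median -0.32). Under poly(I:C) 15 rose, 7 without the line block, and under AO 18 rose (median 0.50). Sars, for serine, had 228 to 409 CPM (median 359) under poly(I:C) and 450.0 to 791 CPM (median 629.6) under AO, a difference of -0.84 ± 0.05 (SE, adjusted p = 1.83e-11) with no overlap. Yars, for tyrosine, and Nars, for asparagine, differed by -0.68 ± 0.05 (SE, adjusted p = 3.3e-10) and -0.59 ± 0.05 (SE, adjusted p = 1.29e-09). The 4 that were higher were Dars, Vars, Kars and Qars, between 0.17 and 0.35, named because they were few.

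Genes for proteotoxic stress in other compartments showed mixed results. Of 24 tested genes of the endoplasmic reticulum unfolded protein response, 13 were lower under poly(I:C), 3 higher and 8 did not pass (median -0.16), with 6 higher without hom line E1.4. Herpud1, a component of protein degradation at that organelle, had 36.7 to 82.4 CPM (median 71.6) under poly(I:C) and 163 to 259 CPM (median 196) under AO (-1.55 ± 0.11, SE, adjusted p = 2.52e-10), and Dnajb9, a co-chaperone, differed by -1.35 ± 0.06 (SE, adjusted p = 1.35e-12), both without overlap. Derl1, a degradation channel, differed by -0.67 ± 0.04 (SE, adjusted p = 3.17e-11). Of 15 mitochondrial chaperones and proteases, 8 were lower under poly(I:C), 2 higher and 5 did not pass (median -0.16), with 5 lower without the line block and 5 in the 20 treated libraries alone. Hspa9, mitochondrial HSP70, and Lonp1, the matrix protease, had differences of -0.61 ± 0.04 (SE, adjusted p = 1.83e-10) and -0.62 ± 0.04 (SE, adjusted p = 1.28e-10). Oma1, the stress-activated protease, was the reverse: it had 8.88 to 11.7 CPM (median 10.5) under poly(I:C), 3.41 to 7.81 CPM (median 5.59) under AO and 7.15 to 10.9 CPM (median 8.85) in untreated cells. Every poly(I:C) library exceeded every AO library (0.91 ± 0.11, SE, adjusted p = 3.58e-07), and the AO and untreated ranges overlapped (-0.68 ± 0.11, SE, adjusted p = 2.24e-05).

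Cytosolic heat shock genes leaned toward poly(I:C). Of 17, 10 were higher, 3 lower and 4 did not pass (median 0.22). Hsp90ab1, a constitutive HSP90, had 3581 to 4460.0 CPM (median 3911) under poly(I:C) and 2732 to 3499 CPM (median 3127) under AO without overlap (0.35 ± 0.04, SE, adjusted p = 1.89e-07). Hspa1b, inducible HSP70 whose reads cannot be cleanly parted from its copy Hspa1a, differed by 1.01 ± 0.12 (SE, adjusted p = 3.67e-07), and Dnajb4, an HSP40, by 0.46 ± 0.06 (SE, adjusted p = 7.88e-07). Of 24 targets of NRF2, the oxidative-stress transcription factor, 12 were higher under poly(I:C), 7 lower and 5 did not pass (median 0.17), with 5 higher without the line block. The backgrounds were 30.8% higher and 26.1% lower, so the count that was lower, near its share, is no result about the list. Hmox1 was among those that were lower. G6pdx and Pgd, enzymes of the pentose phosphate pathway, were higher under poly(I:C) without overlap, by 0.80 ± 0.06 (SE, adjusted p = 1.4e-09) and 0.73 ± 0.05 (SE, adjusted p = 8.46e-11).

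Lysosomal genes and regulators of TFEB, the transcription factor for lysosome formation, mostly rose under AO. Of 37, 29 were lower under poly(I:C) than under AO, 1 was higher and 7 did not pass (median -0.40). Against untreated cells 5 rose and 8 fell under poly(I:C) (median -0.08), shares at or near the background of 19.9% each way. These counts were 0 and 5 without the line block and 8 and 13 without lines E1.4, E2.6 and E2.9, and 3 rose with no filter on low counts or without any 1 line other than E1.4, E2.2 and E2.6. By contrast 30 rose under AO (median 0.35). The list median was below 0 in 10 of 10 pairs, between -0.640 in hom line E1.4 and -0.361 in WT line E2.1. Flcn, folliculin, which with Rag GTPases tethers TFEB control to nutrients, had 22.7 to 33.6 CPM (median 27.9) under poly(I:C), 69.98 to 121 CPM (median 95.99) under AO and 31.7 to 52.5 CPM (median 37.4) in untreated cells. All AO libraries lay above all others (-1.85 ± 0.08, SE, adjusted p = 3.69e-13), and the poly(I:C) and untreated ranges overlapped (-0.52 ± 0.08, SE, adjusted p = 3.73e-05). Rragc, the RagC GTPase, differed by -1.34 ± 0.07 (SE, adjusted p = 6.64e-12), and Neu1, lysosomal sialidase, by -1.67 ± 0.08 (SE, adjusted p = 4.27e-12), both without overlap. Sgsh, a heparan sulfatase, was the gene that was higher (0.36 ± 0.10, SE, adjusted p = 0.00592) and was named for that reason. Without E1.4, 3 lysosomal genes were higher, 4 without lines E1.4, E2.6 and E2.9, and 0 without the line block.

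Autophagy and mitophagy genes moved less as a group: of 38 tested, 18 were lower under poly(I:C), 6 higher and 14 did not pass (median -0.13). Sqstm1, the receptor p62, had 387 to 594 CPM (median 469.6) under poly(I:C), 754 to 1252 CPM (median 1005) under AO and 299 to 438 CPM (median 376) in untreated cells. No AO library overlapped a poly(I:C) library (-1.04 ± 0.06, SE, adjusted p = 4.4e-11), and both treatments raised it, by 0.37 ± 0.06 with poly(I:C) and 1.41 ± 0.06 with AO. Optn, optineurin, did not pass under poly(I:C) (0.09 ± 0.07, SE, adjusted p = 0.347) and rose under AO (0.73 ± 0.07, SE, adjusted p = 5.03e-08), a paired difference of -0.63 ± 0.07 (SE, adjusted p = 2.26e-07). Uvrag and Wipi2, which act in vesicle maturation and phagophore growth, were lower under poly(I:C), with differences of -0.92 ± 0.08 (SE, adjusted p = 3.1e-09) and -0.60 ± 0.05 (SE, adjusted p = 5.09e-09).

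The arrestin-domain and glucose transporter genes showed the Txnip pattern in part. Of 9 tested, 4 were higher under poly(I:C), 2 lower and 3 did not pass, and 6 fell under AO (median -0.45), 2 without the line block. Arrdc3, an adaptor that removes receptors from the membrane, had 27.5 to 78.2 CPM (median 56.9) under poly(I:C) and 12.002 to 31.3 CPM (median 18.5) under AO (1.54 ± 0.13, SE, adjusted p = 4.82e-09). Arrdc4, a close relative of Txnip, differed by 0.76 ± 0.15 (SE, adjusted p = 0.000268) with overlapping ranges. Mlx, the partner of the glucose-sensing factor MondoA, was lower under poly(I:C) (-0.56 ± 0.07, SE, adjusted p = 1.57e-06).

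Glycolysis genes were higher under poly(I:C): 14 of 19, with 3 lower and 2 that did not pass (median 0.47). Poly(I:C) raised 14 (median 0.31), and AO lowered 13 (median -0.16), a count of 5 without the line block. Gapdh, glyceraldehyde-3-phosphate dehydrogenase, had 949.9 to 1280.3 CPM (median 1027) under poly(I:C), 578 to 887 CPM (median 668) under AO and 638 to 994 CPM (median 732) in untreated cells. Poly(I:C) libraries did not overlap AO libraries (0.61 ± 0.05, SE, adjusted p = 8.01e-09). Pfkl, liver-type phosphofructokinase, also differed without overlap (0.69 ± 0.06, SE, adjusted p = 9.24e-09). The 3 that were lower were Eno2, Hk2, a hexokinase (-0.44 ± 0.08), and Slc16a1, a lactate carrier (-0.43 ± 0.05), the last 2 named because they were few.

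Genes of the hypoxia response divided: 8 of 20 tested were higher under poly(I:C), 7 lower and 5 did not pass (median 0.01), with 5 higher without the line block. The backgrounds were 30.8% higher and 26.1% lower. Vegfa, the growth factor of blood vessels, had 40.7 to 132 CPM (median 95.9) under poly(I:C) and 147 to 354 CPM (median 272) under AO, a difference of -1.48 ± 0.08 (SE, adjusted p = 7.8e-12). Ero1l, an oxidase of the endoplasmic reticulum, was also lower (-1.07 ± 0.07, SE, adjusted p = 1.89e-10), and neither gene's ranges overlapped. Egln3, an oxygen-sensing hydroxylase, was higher under poly(I:C) (0.95 ± 0.10, SE, adjusted p = 1.44e-07).

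Nuclear genes of oxidative phosphorylation depended on 1 line. Of 54, 21 were higher under poly(I:C) than under AO, 1 was lower (0 without the line block) and 32 did not pass (median 0.15), and 50 were higher when hom line E1.4 was left out. The median of the list by line was -0.903 in E1.4, and between 0.030 and 0.342 in the other 9. In E1.4 it was -0.401 for poly(I:C) minus untreated and 0.482 for AO minus untreated. Against untreated cells 21 rose under poly(I:C), 41 without E1.4 and 9 without the line block, and 7 fell under AO, 16 without E1.4 and 4 without the line block. The backgrounds were 19.9% up under poly(I:C) and 26.9% down under AO. Atp5a1, a subunit of the ATP synthase, had 815 to 969.6 CPM (median 899.7) under poly(I:C) and 608 to 765 CPM (median 641) under AO without overlap (0.44 ± 0.04, SE, adjusted p = 1.43e-08). Sdha, of complex II, and Ndufa10, of complex I, differed by 0.30 ± 0.04 (SE, adjusted p = 3.26e-06) and 0.39 ± 0.07 (SE, adjusted p = 7.29e-05).

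Protein-coding RNAs of the mitochondrial genome were higher under poly(I:C) than under AO in 9 of 13 cases, 0 were lower and 4 did not pass (median 0.66). Poly(I:C) raised 7 (median 0.29), 13 without lines E1.4, E2.6 and E2.9, and AO lowered 4 (median -0.04). mt-Nd1, a complex I subunit, had 687 to 1252 CPM (median 987) under poly(I:C), 419 to 723 CPM (median 501) under AO and 579 to 1001 CPM (median 712) in untreated cells. The treated ranges overlapped slightly, and all 10 pairs were higher under poly(I:C) (0.88 ± 0.06, SE, adjusted p = 2.31e-10). mt-Nd5, also of complex I, differed by 0.83 ± 0.08 (SE, adjusted p = 2.03e-08), and mt-Co3, of complex IV, by 0.81 ± 0.08 (SE, adjusted p = 2.69e-08). Only the poly(A)-selected part of these RNAs is measured.

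**Figure D3:**
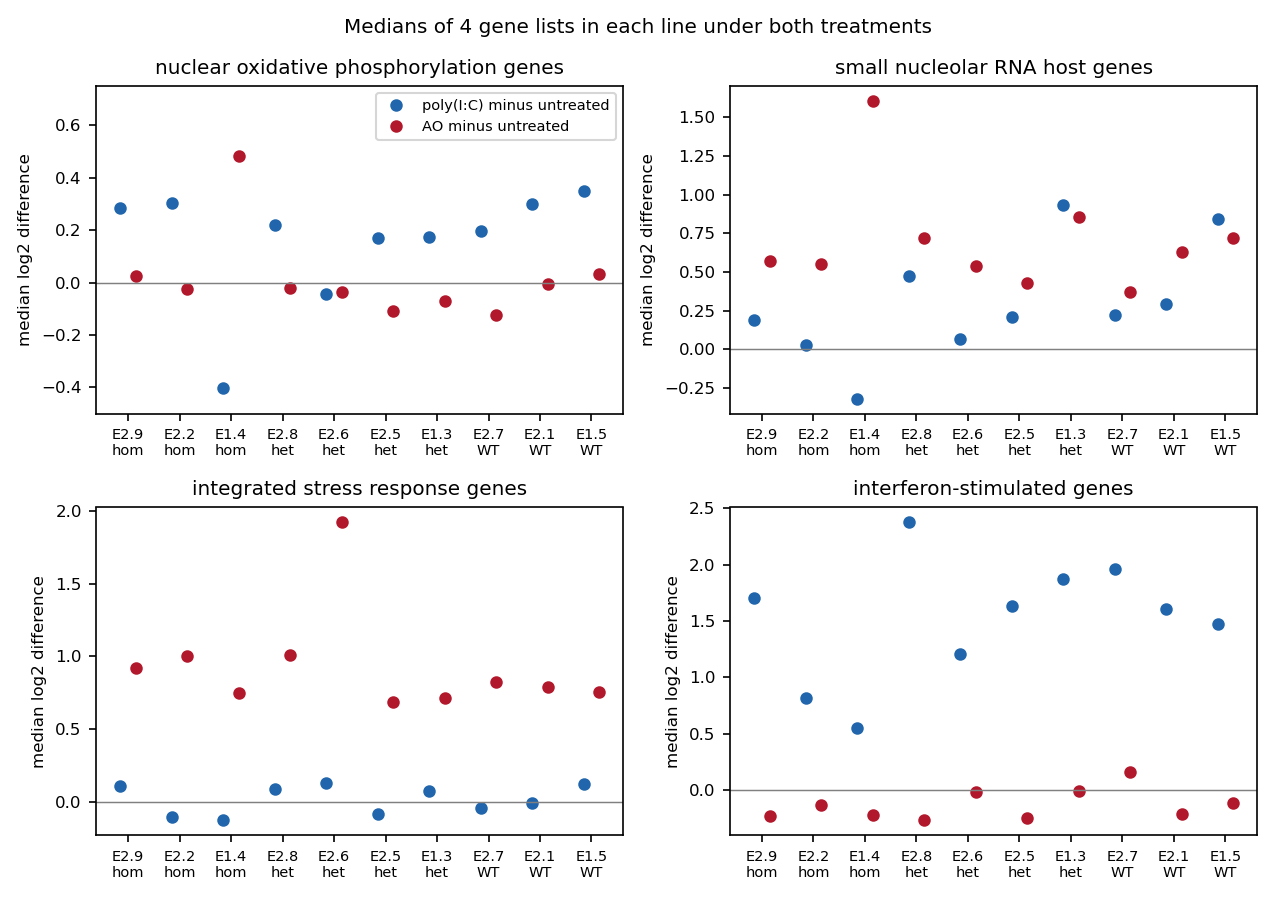
Medians over 4 gene lists of the log2 CPM difference from the untreated library of the same line, drawn for poly(I:C) and for AO in each of 10 lines. Hom line E1.4 has -0.401 under poly(I:C) and 0.482 under AO for nuclear oxidative phosphorylation genes and 1.607 under AO for small nucleolar RNA host genes, het line E2.6 has 1.922 under AO for integrated stress response genes, and interferon-stimulated genes lie above 0.5 under poly(I:C) in every line.

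Cholesterol synthesis and uptake genes were higher under poly(I:C) than under AO in 21 of 25 cases, with 1 lower and 3 that did not pass (median 0.41), and in 9 without the line block. Poly(I:C) raised 24 (median 0.52), 10 without the block. Hmgcs1, HMG-CoA synthase, had 160.0 to 769 CPM (median 652) under poly(I:C) and 74.4 to 411 CPM (median 303) under AO and differed by 1.13 ± 0.08 (SE, adjusted p = 4.23e-10). The ranges overlapped through het line E2.6, at 160.0 CPM under poly(I:C). Dhcr7, a reductase of sterol synthesis, differed by 0.89 ± 0.08 (SE, adjusted p = 1.09e-08). The gene that was lower was Msmo1, a sterol oxidase (-0.43 ± 0.06, SE, adjusted p = 7.44e-06), named because it was alone, and 0 were lower without the line block.

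Genes of G2 and mitosis were lower under AO. Of 34, 26 were higher under poly(I:C) than under AO, 0 lower (2 without hom line E1.4) and 8 did not pass (median 0.28). Poly(I:C) lowered 13 and raised 3 (median -0.09), raised 0 without the line block or with no filter on low counts, and 0 or 1 without any 1 line other than E1.4, E2.5 and E2.6. AO lowered 31 (median -0.44). Ccna2, cyclin A2, had 314 to 349 CPM (median 331) under poly(I:C), 211 to 246 CPM (median 225) under AO and 300.0 to 347 CPM (median 329.8) in untreated cells. AO libraries lay below all others (0.54 ± 0.04, SE, adjusted p = 1.54e-10), and the poly(I:C) and untreated ranges overlapped (0.02 ± 0.04, SE, adjusted p = 0.674). Plk1, a mitotic kinase, differed by 0.96 ± 0.05 (SE, adjusted p = 4.94e-12) and Kif2c, a microtubule depolymerase, by 0.69 ± 0.05 (SE, adjusted p = 8.47e-10), both without overlap.

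S-phase and DNA replication genes split evenly: 16 of 38 were higher under poly(I:C), 14 lower and 8 did not pass (median -0.04), with 8 lower without the line block and 9 in the 20 treated libraries alone. These counts stand beside backgrounds of 30.8% higher and 26.1% lower. Uhrf1, which maintains DNA methylation, was higher by 0.51 ± 0.05 (SE, adjusted p = 2.52e-08), Mcm7, of the replicative helicase, by 0.35 ± 0.04 (SE, adjusted p = 8.19e-08), and Cdc45, a helicase activator, was lower (-0.46 ± 0.05, SE, adjusted p = 7.49e-08). Among 27 p53 targets, 7 were higher, a share below the background of 30.8%, 12 were lower, beside 26.1%, and 8 did not pass (median -0.15). Mdm2, the ubiquitin ligase of p53, and Plk3, a stress-activated kinase, had differences of -0.89 ± 0.07 (SE, adjusted p = 6.27e-10) and -1.25 ± 0.09 (SE, adjusted p = 8.79e-10), and Gtse1, expressed in G2, was higher (0.72 ± 0.05, SE, adjusted p = 4.74e-10). In the BCL2 family 4 of 16 tested were higher, also below 30.8%, 7 were lower, beside 26.1%, and 5 did not pass. Bcl2l11, the pro-apoptotic BIM, had 26.8 to 56.8 CPM (median 42.6) under poly(I:C) and 13.2 to 24.7 CPM (median 16.6) under AO without overlap (1.32 ± 0.10, SE, adjusted p = 1.89e-09), and fell under AO (-0.81 ± 0.11, SE, adjusted p = 2.22e-06). Bcl2l2, the survival protein BCL-W, was lower under poly(I:C) (-0.83 ± 0.09, SE, adjusted p = 7.08e-08), as was Pmaip1, NOXA (-0.47 ± 0.05, SE, adjusted p = 3.27e-07).

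Extracellular matrix genes of fibroblasts were higher under poly(I:C) than under AO in 30 of 40 cases, with 1 lower (0 to 2 with a line left out) and 9 that did not pass (median 0.48), and in 14 without the line block. Poly(I:C) raised 21 (median 0.21), 3 without the block, and AO lowered 23 (median -0.25), 7 without it. Fibroblast markers, of which Col1a1, Col1a2 and Col3a1 also stand in this list, were higher under poly(I:C) than under AO in 9 of 10 cases (median 0.86), and AO lowered 8 (median -0.63). The part of that shift in the matrix result was not tested. Col1a1 and Col1a2, the chains of collagen I, differed by 1.0 ± 0.07 (SE, adjusted p = 3.33e-10) and 0.85 ± 0.06 (SE, adjusted p = 5.61e-10). Col1a1 had 1692 to 4017 CPM (median 2609.8) under poly(I:C) and 778 to 1865 CPM (median 1365) under AO, with overlapping ranges and all 10 pairs higher. Fbn2, fibrillin 2, differed by 1.10 ± 0.07 (SE, adjusted p = 5.1e-11).

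Targets of actin signalling, SRF and YAP were higher under poly(I:C) in 19 of 29 cases, lower in 6 and not passing in 4 (median 0.41). Amotl2, an angiomotin that restrains YAP, had 315 to 555 CPM (median 361) under poly(I:C) and 154 to 272 CPM (median 182) under AO without overlap (1.01 ± 0.07, SE, adjusted p = 2.9e-10). Vcl, vinculin of focal adhesions, and Nuak2, an AMPK-related kinase, were higher by 0.82 ± 0.06 (SE, adjusted p = 9.44e-10) and 0.94 ± 0.08 (SE, adjusted p = 5.05e-09). Among Id genes and feedback genes of BMP and TGF-beta signalling, 7 of 16 were higher, 6 lower and 3 did not pass. Id4 was higher under poly(I:C) (1.46 ± 0.12, SE, adjusted p = 2.22e-09), whereas Smad7, an inhibitory SMAD, and Tgif1, a SMAD corepressor, were lower (-0.64 ± 0.06, SE, adjusted p = 1.95e-08, and -0.98 ± 0.09, SE, adjusted p = 1.25e-08). Id1 was higher by 0.29 ± 0.11 (SE, adjusted p = 0.0329), which did not pass without the line block (adjusted p = 0.18) or without any 1 of E1.3, E1.5, E2.1, E2.5 and E2.7 (0.0509 to 0.102).

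Feedback genes of Hedgehog, Notch and Wnt signalling were higher under poly(I:C) in 7 of 14 tested cases, lower in 0 and not passing in 7 (median 0.36), with 2 higher without the line block and 2 lower without hom line E1.4. Gas1, a membrane co-receptor for Hedgehog ligands, had 28.8 to 186 CPM (median 70.2) under poly(I:C), 4.66 to 26.3 CPM (median 10.5) under AO and 28.2 to 147 CPM (median 60.6) in untreated cells. Every AO library lay below every other library, and the poly(I:C) and untreated ranges overlapped (2.58 ± 0.10, SE, adjusted p = 1.54e-13). Hes1, a Notch target, differed by 0.86 ± 0.07 (SE, adjusted p = 4.53e-09) and rose under poly(I:C) (0.74 ± 0.07, SE, adjusted p = 1.59e-07). Hey1, another Notch target, differed by 0.83 ± 0.13 (SE, adjusted p = 1.59e-05), which did not pass without the line block (adjusted p = 0.18).

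Of 30 ribosome biogenesis genes, 13 were lower under poly(I:C) than under AO, 4 higher and 13 did not pass (median -0.08). Poly(I:C) raised 19 (median 0.20), 12 without the line block, and lowered 2 (1 without E2.5 or E2.7), and AO raised 26 (median 0.30). Gnl3, nucleostemin, and the processing factors Nop14 and Nop58 were lower under poly(I:C) without overlap. Their differences were -0.72 ± 0.06 (SE, adjusted p = 3.33e-09), -0.48 ± 0.04 (SE, adjusted p = 1.34e-08) and -0.38 ± 0.04 (SE, adjusted p = 2.14e-07). Host genes of small nucleolar RNAs, whose spliced RNAs are normally destroyed during translation, were lower under poly(I:C) in 7 of 11 tested cases, higher in 0 (1 without E1.4) and not passing in 4 (median -0.44). By line their median was -1.939 in hom line E1.4 and between -0.652 and 0.075 in the other 9. Poly(I:C) raised 6 of them (median 0.34) and AO raised 9 (median 0.73). Snhg12 had 26.1 to 60.3 CPM (median 34.3) under poly(I:C), 59.7 to 239 CPM (median 83.6) under AO and 15.97 to 44.1 CPM (median 21.9) in untreated cells. Hom line E1.4 held the highest AO value, and all 10 pairs were lower under poly(I:C) (-1.25 ± 0.11, SE, adjusted p = 1.16e-08). Snhg1 and Gas5 differed by -1.03 ± 0.12 (SE, adjusted p = 6.7e-07) and -0.62 ± 0.09 (SE, adjusted p = 4.79e-06). The strand setting used for counting is not given, so host genes and other RNAs that overlap genes on the other strand are less certain.

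Nuclear and imprinted long non-coding RNAs had the lowest median under poly(I:C) of the 31 lists drawn by line. Of 14 tested, 10 fell and 1 rose under poly(I:C) (median -1.21), and 9 fell and 1 rose under AO (median -0.31), 4 falling without the line block. Set against AO, 7 were lower, 4 higher (1 without the block) and 3 did not pass (median -0.33). Meg3, an imprinted RNA, had 7.10 to 26.7 CPM (median 12.4) under poly(I:C), 22.2 to 73.6 CPM (median 33.4) under AO and 31.1 to 77.2 CPM (median 49.6) in untreated cells. It was lower under poly(I:C) in 10 of 10 pairs (-1.45 ± 0.09, SE, adjusted p = 3.02e-11), and the fall under AO did not pass without the block (adjusted p = 0.11). Mir17hg, host of the miR-17 cluster, had 2.35 to 4.84 CPM (median 3.11) under poly(I:C), 8.97 to 17.9 CPM (median 10.8) under AO and 7.89 to 17.8 CPM (median 11.03) in untreated cells, so that only poly(I:C) libraries lay apart (-1.79 ± 0.14, SE, adjusted p = 1.01e-09). Firre, an X-linked RNA of nuclear organisation, had 3.02 to 6.91 CPM (median 6.11) under poly(I:C) and 9.21 to 20.5 CPM (median 17.6) under AO, also without overlap, and a difference of -1.49 ± 0.13 (SE, adjusted p = 6.26e-09).

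Shared responses were taken from genes that passed against untreated under both treatments, in the same direction in all 10 lines, ranked by the smaller of the 2 changes. The 8 that led upward were Ccl20, a chemokine for CCR6-bearing cells, the transcription factors Atf3, Fosb, Relb and Csrnp1, the cytokine Lif, the small GTPase Gem, and Gch1, the rate-limiting enzyme of tetrahydrobiopterin synthesis. Ccl20 had 11.7 to 56.4 CPM (median 31.5) under poly(I:C), 2.21 to 37.4 CPM (median 17.1) under AO and 0 to 5.65 CPM (median 1.89) in untreated cells. It rose by 4.07 ± 0.28 under poly(I:C) and by 3.09 ± 0.30 under AO, and the untreated library of het line E2.6 held no count. Atf3 had 23.5 to 153 CPM (median 74.4) under poly(I:C), 64.4 to 126 CPM (median 100.5) under AO and 5.52 to 21.4 CPM (median 16.96) in untreated cells. Both treated groups lay above every untreated library, by 2.24 ± 0.13 under poly(I:C) and 2.72 ± 0.13 under AO. The remaining 6 rose by between 1.20 (Gch1) and 1.81 (Csrnp1) under poly(I:C), with Relb also at 1.20, and by between 1.25 (Relb) and 2.0 (Lif) under AO. Between the treatments, Relb, Fosb and Gch1 did not differ past the threshold (-0.05 ± 0.12, 0.11 ± 0.19 and -0.25 ± 0.11), and the differences of Ccl20, Atf3, Lif and Gem were lost without the line block (adjusted p = 0.071, 0.21, 0.28 and 0.056). That of Lif was also lost without E2.1 or E2.7 (0.0637 and 0.059) and that of Gem without E2.2 (0.0621), whereas Gch1 passed without E2.5 or E2.9 (0.0429 and 0.00889). Csrnp1 was higher under poly(I:C) (0.51 ± 0.08, SE, adjusted p = 1.98e-05).

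The 8 that led downward under both were Neat1, the scaffold RNA of paraspeckles, Dnm3os, the antisense host of miR-199 and miR-214, Spaca6, known from sperm-egg fusion, the orphan receptor gene Gpr162, the retrovirus restriction gene Fv1, Abtb1, Dnajc28 and Pabpc4l. Neat1 had 37.9 to 71.6 CPM (median 60.98) under poly(I:C), 23.1 to 102 CPM (median 40.6) under AO and 123 to 204 CPM (median 181) in untreated cells. All treated libraries lay below all untreated ones, with changes of -1.55 ± 0.12 under poly(I:C) and -1.95 ± 0.12 under AO. The difference between treatments (0.40 ± 0.13, SE, adjusted p = 0.0109) was lost without the line block (adjusted p = 0.063). Dnm3os had 12.02 to 22.6 CPM (median 14.3) under poly(I:C), 4.85 to 10.7 CPM (median 7.93) under AO and 22.9 to 50.1 CPM (median 38.7) in untreated cells, with 3 separate ranges and the lowest under AO, and its level is uncertain where reads of Dnm3 on the other strand were counted. Spaca6 had changes of -1.79 ± 0.11 under poly(I:C) and -1.33 ± 0.10 under AO. The other 5 changed by between -1.73 (Gpr162) and -1.07 (Pabpc4l) under poly(I:C), and by between -1.42 (Gpr162) and -1.09 (Dnajc28) under AO. For these 5 genes, at medians of 1.19 to 7.35 CPM, poly(I:C) and AO did not differ past the threshold.

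**Figure D4:**
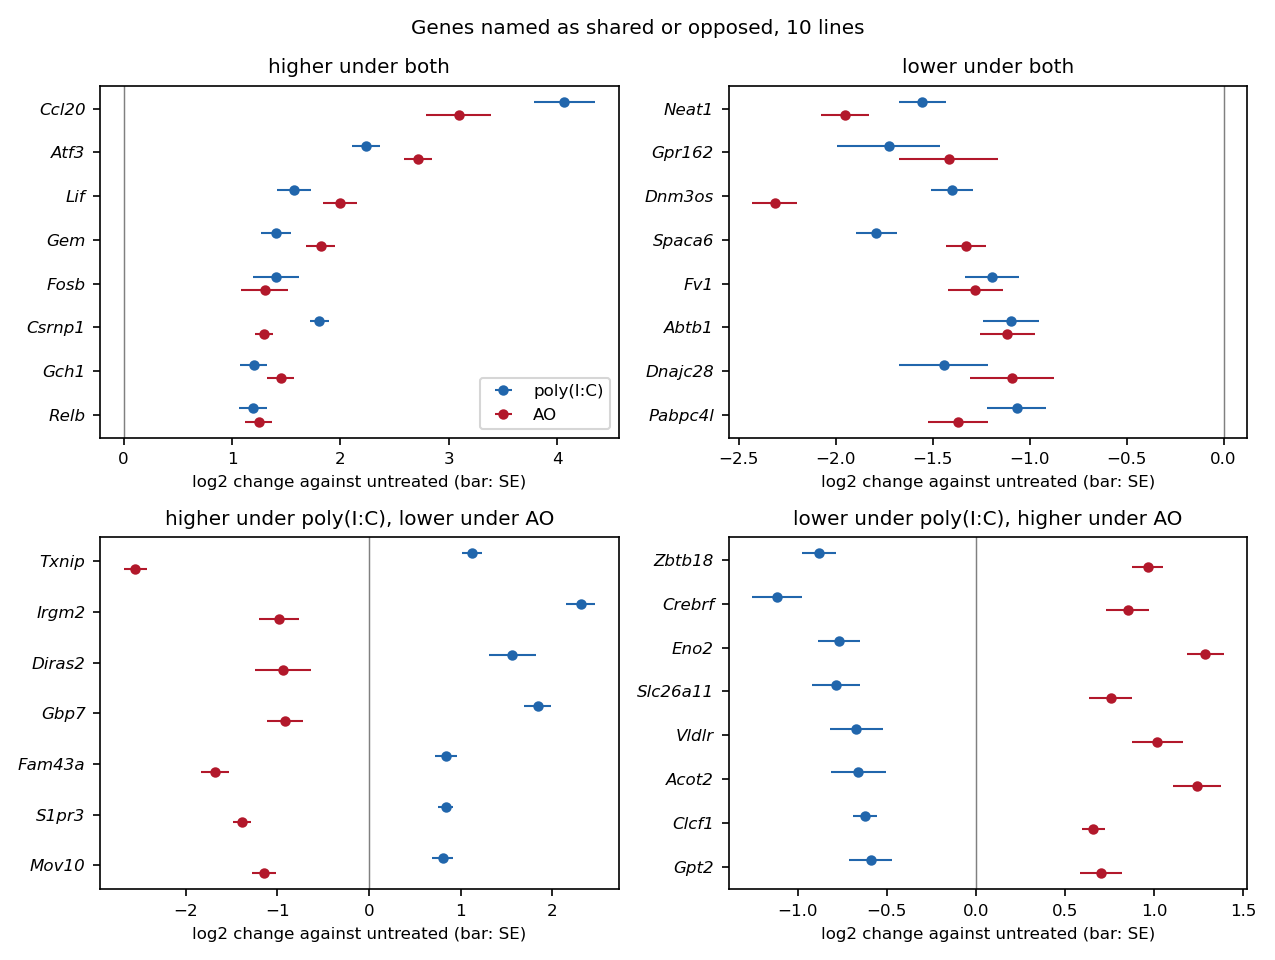
Log2 changes against untreated cells with SE bars from the fit over 10 lines, for genes named in each pattern, poly(I:C) drawn above AO. Of the genes higher under both treatments, Ccl20 and Atf3 lie furthest to the right, Neat1 and Dnm3os lie below -1.3 under both, and Txnip has 1.13 under poly(I:C) beside -2.55 under AO.

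Opposed responses were named by the same rule with opposite directions, each held in all 10 lines, so agreement over lines or pairs is no finding here. Genes raised by poly(I:C) and lowered by AO included Txnip, the immunity-related GTPase Irgm2, the guanylate-binding protein Gbp7, the RNA helicase Mov10, the sphingosine-1-phosphate receptor S1pr3, the small GTPase Diras2 and Fam43a. Irgm2 had 5.34 to 426 CPM (median 116) under poly(I:C), 0.249 to 46.01 CPM (median 9.38) under AO and 2.34 to 91.7 CPM (median 16.02) in untreated cells. Its changes of 2.31 ± 0.16 under poly(I:C) and -0.98 ± 0.22 under AO went apart in every line, as the rule required, although ranges overlapped between lines. S1pr3 had 11.2 to 66.1 CPM (median 25.5) under poly(I:C), 2.49 to 11.7 CPM (median 7.31) under AO and 7.07 to 32.6 CPM (median 17.7) in untreated cells, a paired difference of 2.22 ± 0.09 (SE, adjusted p = 3.69e-13). Mov10 had 21.6 to 126 CPM (median 53.1) under poly(I:C), 4.58 to 29.1 CPM (median 12.99) under AO and 17.7 to 49.9 CPM (median 24.9) in untreated cells, again with overlapping ranges and 10 of 10 pairs in the same direction (1.95 ± 0.13, SE, adjusted p = 1.18e-10). Fam43a had 7.21 to 18.6 CPM (median 14.6) under poly(I:C) and 1.15 to 3.68 CPM (median 2.14) under AO, with no overlap between treatments (2.52 ± 0.15, SE, adjusted p = 2.28e-11). Gbp7 and Diras2 differed by 2.75 ± 0.17 (SE, adjusted p = 7.06e-11) and 2.51 ± 0.28 (SE, adjusted p = 1.98e-07). Without the line block, the fall under AO did not pass for Irgm2, Gbp7 or Diras2 (adjusted p = 0.19, 0.22 and 0.33), nor did the rise under poly(I:C) for S1pr3 or Diras2 (adjusted p = 0.07 and 0.069). The fall of Diras2 also did not pass without lines E2.6 and E2.9 (0.052). Copies of Irgm2 and Gbp7 share reads.

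Lowered by poly(I:C) and raised by AO were Zbtb18, a transcriptional repressor, Crebrf, a regulator of CREB3, Eno2, the anion transporter Slc26a11, the lipoprotein receptor Vldlr, the mitochondrial thioesterase Acot2, the cytokine Clcf1 and the alanine aminotransferase Gpt2. Crebrf had 6.41 to 12.02 CPM (median 8.04) under poly(I:C), 19.2 to 42.02 CPM (median 35.5) under AO and 13.4 to 24.7 CPM (median 17.9) in untreated cells. Every poly(I:C) library lay below all others, and the AO and untreated ranges overlapped, with a change of -1.12 ± 0.14 under poly(I:C), 0.85 ± 0.12 under AO and a paired difference of -1.97 ± 0.13 (SE, adjusted p = 2.52e-10). Zbtb18 had 11.03 to 29.7 CPM (median 22.5) under poly(I:C), 58.8 to 95.5 CPM (median 85.9) under AO and 18.6 to 51.3 CPM (median 45.7) in untreated cells, a paired difference of -1.84 ± 0.09 (SE, adjusted p = 5.58e-12). Vldlr, whose promoter window holds the C/EBP-ATF element, had 14.8 to 61.5 CPM (median 50.96) under poly(I:C), 78.2 to 189 CPM (median 157) under AO and 18.01 to 95.02 CPM (median 85.4) in untreated cells and differed by -1.69 ± 0.15 (SE, adjusted p = 8.41e-09). Acot2 had 1.81 to 11.9 CPM (median 9.06) under poly(I:C) and 24.3 to 39.1 CPM (median 31.03) under AO (-1.90 ± 0.15, SE, adjusted p = 1.29e-09). Clcf1, Gpt2 and Slc26a11 differed by -1.28 ± 0.07 (SE, adjusted p = 8.86e-12), -1.29 ± 0.12 (SE, adjusted p = 1.79e-08) and -1.54 ± 0.13 (SE, adjusted p = 4.59e-09). None of these 8 genes had overlapping ranges between poly(I:C) and AO.

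Genotype was kept as a label, and the paired difference was also tested within each. Between poly(I:C) and AO, 4642 genes differed in the 3 hom lines, 4967 in the 4 het lines and 4675 in the 3 WT lines, the last being 2880, 3017 and 2894 without WT line E1.5, E2.1 or E2.7. Without the line block these counts were 2338, 2462 and 2163. Of the interferon-stimulated genes, 44 of 62 were higher under poly(I:C) than under AO in hom lines (median 1.68), 61 of 62 in het lines (median 1.99) and 61 of 62 in WT lines (median 1.83), beside backgrounds of 18.5%, 19.6% and 17.5% higher. Of the integrated stress response genes, 32 of 42 were lower in hom lines (median -0.93), 37 in het lines (median -1.08) and 28 in WT lines (median -0.71), beside backgrounds of 16.2%, 17.5% and 17.5% lower. Counts that pass within a genotype depend on its lines and levels and, as all genotypes share 1 fit, on lines of the others. Without hom line E1.4 they were 6505 in het and 6245 in WT lines. The differences between genotypes were tested as interactions.

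Hom and WT lines differed in their paired difference in 1 gene (0.00748% of those tested), with 1879 genes at an unadjusted p under 0.05 and 13 genes by DESeq2. Het and WT lines differed in 0 genes by edgeR, with 202 at an unadjusted p under 0.05 and 0 by DESeq2. The gene that differed between hom and WT lines was Ppp1r15a (chr7:45522916-45526268, minus strand). Under poly(I:C) it had 58.6, 46.4 and 65.9 CPM in hom lines, 123, 90.03, 224 and 176 CPM in het lines and 179, 98.3 and 157 CPM in WT lines. Under AO it had 366, 376 and 423 CPM in hom lines, 382, 219, 383 and 337 CPM in het lines and 359.6, 367 and 387 CPM in WT lines, and untreated libraries lay between 42.6 and 76.4 CPM. The hom lines under poly(I:C) overlapped the untreated range, whereas all het and WT lines lay above it. The paired difference was -2.78 ± 0.16 in hom, -1.14 ± 0.13 in het and -1.39 ± 0.15 in WT lines, a hom minus WT difference of -1.39 ± 0.21 (SE, adjusted p = 0.0274). The interaction was below 0 under all 16 alternatives run, between -1.60 and -1.20, but did not pass without line E1.3, E1.4, E1.5, E2.2 or E2.7 (adjusted p = 0.0694, 0.08, 0.301, 0.0897 and 0.328), without lines E2.6 and E2.9 (0.0566), in the 20 treated libraries alone (0.68) or without the line block (0.908).

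Other genes with the smallest interaction p missed the threshold in edgeR. Cd274, the T-cell inhibitory ligand PD-L1, had paired differences of 0.43 ± 0.46 in hom, 3.39 ± 0.23 in het and 3.33 ± 0.26 in WT lines, a hom minus WT difference of -2.91 ± 0.57 (SE, adjusted p = 0.156). Tor3a, an interferon-inducible ATPase, had -0.35 ± 0.26 in hom, 1.49 ± 0.19 in het and 1.56 ± 0.21 in WT lines (-1.91 ± 0.34, SE, adjusted p = 0.102). Apobec1, a cytidine deaminase, had a hom minus WT difference of -2.34 ± 0.44 (SE, adjusted p = 0.156). Csrnp1 had -0.99 ± 0.21 (SE, adjusted p = 0.273), Sap30, a corepressor subunit, -1.36 ± 0.27 (SE, adjusted p = 0.156), and Plec, the cytoskeletal linker plectin, 0.55 ± 0.12 (SE, adjusted p = 0.234). These 6 genes passed under DESeq2 (adjusted p from 4.27e-05 for Tor3a to 0.025 for Csrnp1) and with no filter on low counts, and in edgeR Tor3a also passed without lines E2.6 and E2.9 (0.0013), Cd274 without E2.5 (0.0435) and Apobec1 without E2.5 or E2.6 (0.0435 and 0.0396). For Ifnb1, Cxcl10, Ifit1 and Il6 the paired differences of hom and WT lines could not be told apart by this test. The hom minus WT difference was -2.05 ± 6.96 for Ifnb1 (adjusted p = 0.904), -0.61 ± 0.47 for Cxcl10 (0.516), 0.25 ± 0.69 for Ifit1 (0.875) and -2.59 ± 0.67 for Il6 (0.32). Ifnb1 had only 3, 0 and 2 counts in hom lines under poly(I:C) and 0 in each under AO, so its test could not decide. For Ifit1, low in hom lines under both treatments and untreated, the paired difference was 3.54 ± 0.55 in hom, 3.49 ± 0.30 in het and 3.28 ± 0.33 in WT lines. Among the 8 genes with the smallest het minus WT p, all with an adjusted p of 1, Zhx2, a homeobox repressor, had 0.67 ± 0.18 and Sema6d, a semaphorin, -1.16 ± 0.33. Papln (3.73 ± 0.99), Jakmip2 (1.09 ± 0.31), BC051077 (-2.44 ± 0.69) and 4632404H12Rik (-1.43 ± 0.37) followed, and Zfp781 and AY036118, both at a median of 0 CPM in every treatment, gave no usable estimate. Gm43321 had a hom minus WT difference of -2.66 ± 0.56 (SE, adjusted p = 0.234). Txnip and Ddit3 had hom minus WT differences of -0.63 ± 0.34 and -0.47 ± 0.35 (adjusted p = 0.383 and 0.507).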

How the data were processed

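RNA of 500 ng was made into poly(A)-selected, strand-marked TruSeq libraries, per the labels' protocols. The authors aligned reads and estimated an expected count per gene and library before deposit, with STAR, RSEM and mm10 named without versions in the submitters' processing notes, and the counting strand is not stated there. The deposited expected counts were rounded here to integers (5.68 to 9.45% were not whole within 0.001), and 49326 of 49585 gene IDs were matched to symbols in GENCODE vM21. Genes were filtered with filterByExpr (minimum count 10, total 15), scaled by TMM and tested with edgeR 4.0.16 in R 4.3.3, with 1 column per line and, within each genotype, a poly(I:C) and an AO effect, over 30 libraries with 14 residual degrees of freedom. Effects over 10 lines weight the genotypes by their number of lines. CPM use TMM-scaled library sizes, and log2 CPM in lists by line use a prior count of 2. No alternative uses the 6 libraries with a density label.

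The labels tie the 3 libraries of a line, so the line was the block. Deviations of the poly(I:C) and AO libraries of a line from their group means correlated at 0.342 to 0.686 in all 10 lines. No libraries of a group agreed within sampling noise (lowest chi-square per degree of freedom 5.61). The floors cover counting error only. Each SE comes from the fit and includes the spread left after the line block and the treatment effects of each genotype. Members, gene lists, tests and the naming rule were chosen with earlier results of these data known. Named genes were the 10 largest differences per direction that kept their sign in all 10 pairs, 8 genes per shared or opposed pattern ranked by the smaller change (mean log2 CPM of at least 1 for both), the 3 smallest p of each pathway list, a fixed set of known responders, and the 8 smallest p of each genotype interaction. Genes named outside the rule are said to be so, and some that it names are not reported here. Alternatives were another scaling (RLE), no filter, DESeq2 1.42.0, no block, 20 libraries, 1 effect per treatment, each line left out, and, chosen after seeing the data, lines E2.6 and E2.9 or E1.4, E2.6 and E2.9 left out. Python 3.11.15, numpy 2.4.6, pandas 2.3.3, scipy 1.17.1 and matplotlib 3.10.9 were used, and the fits were tested on simulated data.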

Additional observations from a re-analysis of the deposited data

Results flagged for a closer look

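In 16 of 102 groups of 10 paired differences (31 lists and 71 genes), the highest or lowest line lay far from the rest. The cut-off would mark about 1 in 20 independent groups by chance. These groups share the same libraries, and many of the genes were picked from the same differences, so their number is not read against that rate. Hom line E1.4 was the far line in 11 and het line E2.6 in 2. Values are log2 differences of poly(I:C) minus AO in the far line, with the nearest other line. In E1.4 the list median was -0.64 for lysosomal genes (nearest -0.48), 0.72 for G2 and mitosis genes (0.36), -0.12 for S-phase genes (-0.0), -0.9 for nuclear oxidative phosphorylation genes (0.03), -0.47 for mitochondrial chaperones and proteases (-0.25), 0.82 for cholesterol genes (0.51), -1.94 for small nucleolar RNA host genes (-0.65), 1.09 for matrix genes (0.54) and 1.02 for Hedgehog, Notch and Wnt feedback genes (0.4).

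Among genes, E1.4 was the far line for Spaca6 (0.61, nearest -0.15) and Pabpc4l (1.66, nearest 0.37). Hom line E2.2 was far for Rsad2 (1.15, nearest 3.13), Fos (0.16, nearest 1.1) and Ppp1r16b (-4.13, nearest -2.79). Het line E2.6 was far for Trib3 (-4.68, nearest -1.55) and Eno2 (-0.92, nearest -1.81). A difference between genotypes was tested and passed in the main fit for Ppp1r15a, with a hom minus WT value of -1.39. It did not pass in the 20 treated libraries alone (edgeR, adjusted p = 0.68), without the line block (0.908) or without some single lines.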

How the results depend on the processing

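The libraries were paired by line, and the line was the replicate block of the tests reported. Without the block, 5563 genes differed between poly(I:C) and AO, against 7598 with it, 2959 changed under poly(I:C) against untreated, the within-genotype counts were 2338 in hom, 2462 in het and 2163 in WT lines, and hom minus WT gave 0 genes. Of 520 values of named genes, 68 no longer passed without the block, and none reversed under any alternative run. With no filter on low counts, 175 genes fell at least 2-fold under poly(I:C) against untreated, and the interactions gave 618 genes for hom minus WT and 14 for het minus WT. DESeq2 gave 13 genes for hom minus WT and the 20 treated libraries alone gave 0. Without lines E2.6 and E2.9 hom minus WT gave 2 genes. Without E1.4, E2.6 and E2.9, 200 genes fell at least 2-fold under poly(I:C) against untreated and het minus WT gave 1 gene. The cause of these shifts was not tested.

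Leaving out each line in turn gave 7086 to 8681 genes between poly(I:C) and AO, 0 to 6 genes for hom minus WT, and within genotypes 4153 to 5121 genes in hom, 3412 to 6505 in het and 2880 to 6245 in WT lines. The highest of the within-genotype counts all came without E1.4. Depth limits the rare genes: the interferon genes had few counts outside poly(I:C), and interaction SEs of single genes with 3 or 4 lines a side were wide. Each treatment has 1 library per line, so line and library cannot be told apart.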
